A study of Mus musculus with 24 samples.

Results

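The genes described here are 10 secreted regulators of bone morphogenetic protein (BMP) signaling, 6 ligands (*Bmp2*, *Bmp3*, *Bmp4*, *Bmp5*, *Bmp6* and *Bmp7*) and 4 extracellular antagonists or modulators (*Grem1*, *Nog*, *Chrd* and *Bmper*). They were taken by name, out of 22367 protein-coding genes on chromosomes 1 to 19, X and Y of the mm9 annotation. For each gene, the trimethylation of histone H3 at lysine 4 (H3K4me3) and at lysine 27 (H3K27me3) was read within 2 kb on either side of the transcription start site (TSS), a window of 4001 bp called the promoter here, and over the gene body. Every one of the 10 promoters carried H3K4me3 in every population profiled. At 6 of them H3K27me3 was present as well in all 4 populations, *Bmp5* carried none in any population, and *Bmp2*, *Bmp4* and *Bmper* each lacked it in a single population. Among the 10, the promoter class differed between Sertoli and pregranulosa cells at *Bmp2* alone, 1 of 10, while it differed at 13.0% of all protein-coding promoters.

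BMPs are ligands of the TGF-beta superfamily that bind pairs of type I and type II serine/threonine kinase receptors on the cell surface. The activated receptors phosphorylate receptor-regulated Smads, which enter the nucleus with Smad4 and switch on targets such as the Id genes. Extracellular antagonists bind the ligands and keep them from the receptors. In the fetal gonad *Bmp2* is known as a gene of the ovarian supporting lineage. H3K4me3 is found at the promoters of active and poised genes, and H3K27me3 is deposited by Polycomb repressive complex 2 at repressed genes. A promoter that carries both is called bivalent.

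ChIP-seq for H3, H3K4me3 and H3K27me3 was performed in duplicate on supporting cells of 4 kinds, 24 samples in all, from embryos of a C57BL/6 x CD1 background. The progenitors were XY or XX cells sorted at embryonic stage E10.5 by the *Sf1-eGFP* reporter. Sertoli cells were sorted from XY gonads at E13.5 by *Sox9-CFP*, and pregranulosa cells, labelled granulosa cells by the submitters, from XX gonads at E13.5 by the reporter given as *TESM-CFP* in the labels and *TESMS-CFP* in the study, which carries a mutant form of TESCO, the core testis enhancer of *Sox9*. Each mark and population had 1 peak list made from both replicates, so there is no spread between replicates and no test between populations, and each difference below is a difference between 2 lists. The labels name no allele besides the reporter, gonads were pooled before sorting, and each sort takes every cell with the fluorescent protein.

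The lists differed in depth and in form. The headers gave 6470151 tags for H3K27me3 in XY progenitors, 33185400 in XX progenitors and 44446456 in Sertoli cells, and between 10162534 (XY progenitors) and 49254553 (XX progenitors) tags for H3K4me3. No depth was given for pregranulosa cells. H3K27me3 was listed in peaks of about 5 kb in the progenitor and Sertoli lists, which were joined here where they overlapped, while the pregranulosa list held 12609 regions that did not overlap. In XY progenitors 90.9 Mb of the genome lay inside H3K27me3, in XX progenitors 143.8 Mb, in Sertoli cells 157.9 Mb and in pregranulosa cells 172.9 Mb. The part of these differences in any result below was not tested. Among 5 markers of Sertoli cells (*Sox9*, *Dmrt1*, *Amh*, *Fgf9* and *Dhh*), all 5 carried H3K4me3 without H3K27me3 in Sertoli cells and all 5 were bivalent in pregranulosa cells. There H3K27me3 covered 725 bp at *Amh* and 4001 bp at the rest. In both progenitor lists *Amh* carried H3K4me3 alone and the rest were bivalent. Of 4 pregranulosa markers, *Wnt4* and *Rspo1* carried H3K4me3 alone in pregranulosa cells and were bivalent in Sertoli cells, whereas *Foxl2* and *Fst* were bivalent in all 4 populations. H3K27me3 at *Fst* covered 1284 bp in pregranulosa cells, against 4001 bp in the other lists. All 4 early gonad genes (*Nr5a1*, *Wt1*, *Gata4* and *Lhx9*) were bivalent in both progenitor populations, and at E13.5 all 4 carried H3K4me3 alone in pregranulosa cells and 3 did in Sertoli cells, where *Lhx9* was bivalent. Among 3 germ cell genes, *Ddx4* carried neither mark in any list, *Dazl* carried H3K4me3 alone in all 4 and *Pou5f1* carried H3K27me3 in all 4. H3K4me3 at *Pou5f1* covered 1001 bp in Sertoli cells, where it was bivalent, and 0 bp in the other lists. Among 3 endothelial genes, *Pecam1* was unmarked in all 4 lists, *Cdh5* in 3 and *Kdr* was bivalent in all 4, as were the mesonephric genes *Pax2* and *Pax8*.

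The promoters of *Bmp2* and *Bmp5* are shown because *Bmp2* alone among the 10 genes differed in class between Sertoli and pregranulosa cells and *Bmp5* alone never carried H3K27me3. Each line gives the 250 bases upstream of the TSS, 5' to 3' on the strand of the gene in mm9 (NCBIM37), with every CpG dinucleotide in capitals.
Bmp2 (chr2:133377645-133377894, plus strand): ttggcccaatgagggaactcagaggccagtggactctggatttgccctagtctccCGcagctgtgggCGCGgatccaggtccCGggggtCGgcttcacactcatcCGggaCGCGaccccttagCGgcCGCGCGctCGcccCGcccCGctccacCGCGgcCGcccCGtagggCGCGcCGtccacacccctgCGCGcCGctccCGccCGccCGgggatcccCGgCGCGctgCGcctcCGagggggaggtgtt
Bmp5 (chr9:75622921-75623170, plus strand): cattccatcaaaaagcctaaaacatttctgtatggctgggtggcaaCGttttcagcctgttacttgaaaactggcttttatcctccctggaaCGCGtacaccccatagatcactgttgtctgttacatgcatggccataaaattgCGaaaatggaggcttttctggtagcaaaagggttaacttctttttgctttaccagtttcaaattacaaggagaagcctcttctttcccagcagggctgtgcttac
The *Bmp2* stretch held 33 CpGs and the *Bmp5* stretch held 4. By ChIP-qPCR, the study found both marks retained at *Bmp2* in purified adult Sertoli cells, a stage outside these lists. It examined bivalency further by sequential ChIP (ChIP-re-ChIP) in adult testes. Its ChIP-qPCR primers for *Bmp2* are shown because they mark a fixed point at this gene.
Bmp2 forward primer: gacttcttgaacttgccg
Bmp2 reverse primer: tgttgcttttcttcgcctcc
Each primer matched mm9 exactly once, and the pair bounds 189 bp at chr2:133378790-133378978, from 895 to 1083 bp downstream of the TSS and wholly inside the first annotated exon. H3K4me3 regions covered all 189 bp in all 4 populations. H3K27me3 regions covered all 189 bp in XY progenitors, XX progenitors and Sertoli cells and 0 bp in pregranulosa cells.

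Bivalency was the commonest state of these genes. Of the 10 promoters, 8 were bivalent in XY progenitors, 8 in XX progenitors, 9 in Sertoli cells and 8 in pregranulosa cells, and the others carried H3K4me3 alone. Over all 22367 protein-coding promoters the bivalent share was 20.4% in XY progenitors (exact 95% binomial interval 19.9% to 20.9%, counting error only), 22.4% in XX progenitors (21.8% to 22.9%), 18.7% in Sertoli cells (18.2% to 19.3%) and 20.4% in pregranulosa cells (19.9% to 20.9%). By comparison, H3K4me3 was at all 10 promoters in each list, against 64.2% of all promoters in XY progenitors, 66.0% in XX progenitors, 64.9% in Sertoli and 66.3% in pregranulosa cells. The repressive mark H3K27me3 was at 8, 8, 9 and 8 of the 10 in the same order, against 23.0%, 24.8%, 23.5% and 23.7% of all promoters. *Bmp3*, *Bmp6*, *Bmp7*, *Grem1*, *Nog* and *Chrd*, 6 of 10, were bivalent in all 4 populations, a pattern found at 13.6% of protein-coding promoters. Because each list pools many cells, marks on the same chromosomes and marks in different cells of the sort cannot be told apart.

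**Figure D1:**
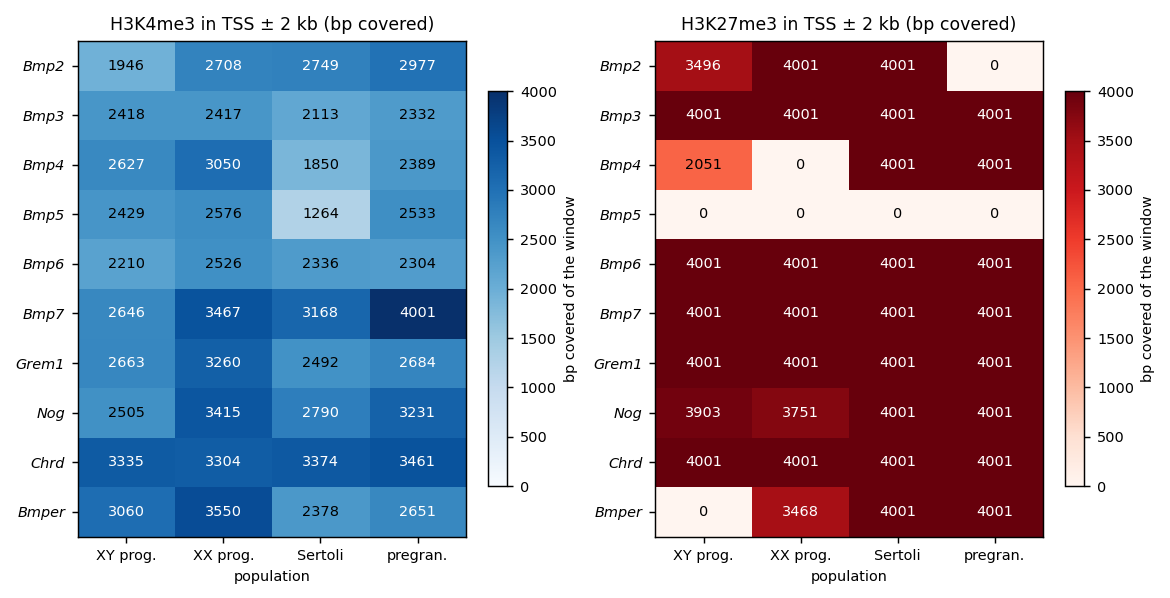
Bases of each 4001 bp promoter window covered by H3K4me3 (left, blue) and H3K27me3 (right, red), with genes in rows and the 4 populations in columns (prog. stands for progenitor and pregran. for pregranulosa). All cells on the left are above 0, between 1264 and 4001 bp, whereas on the right 7 of 40 cells are at 0, 4 of them in the row of *Bmp5*.

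*Bmp2* encodes a ligand that signals through Bmpr1a and Bmpr2. The gene lies on chromosome 2 (chr2:133377895-133388621, plus strand, 10727 bp, 3 exons). H3K27me3 covered 3496 of 4001 bp of its promoter in XY progenitors, 4001 bp in XX progenitors, 4001 bp in Sertoli cells and 0 bp in pregranulosa cells. The region spanned -1495 to 7490 bp from the TSS in XY progenitors, -4218 to 7362 bp in XX progenitors and -3142 to 5826 bp in Sertoli cells, negative values being upstream. In pregranulosa cells the nearest H3K27me3 region was 567900 bp from the TSS, and none lay within 50 kb. H3K27me3 was thus listed at *Bmp2* in every population except pregranulosa cells. The pregranulosa markers *Wnt4* and *Rspo1* and the early gonad gene *Lhx9* had the same pattern. The other pregranulosa markers, *Foxl2* and *Fst*, were bivalent in all 4. At *Fst*, however, H3K27me3 covered 1284 bp in pregranulosa cells and 4001 bp in the other lists. At *Foxl2* it covered 4001 bp in every list. The study reports that *Foxl2* lost H3K27me3 at its TSS and gene body in pregranulosa cells, a loss its wider promoter window did not show. Such a pattern, H3K27me3 in both progenitors and Sertoli cells but not in pregranulosa cells, was found at 234 protein-coding promoters, 1.05% of all. The 4 classes of *Bmp2* (bivalent 3 times, then H3K4me3 alone) were shared by 200 protein-coding genes, *Bmp2* included, or 0.894%.

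H3K4me3 at *Bmp2* was widest where H3K27me3 was missing. The H3K4me3 region at the TSS was 1946 bp wide in XY progenitors, 4157 bp in XX progenitors, 3774 bp in Sertoli cells and 8318 bp in pregranulosa cells. In pregranulosa cells it ran from -976 to 7341 bp and was wider than the region at 98.6% of all H3K4me3-marked protein-coding promoters of that list, compared with 37.8% in XY progenitors, 80.7% in XX progenitors and 81.3% in Sertoli cells. It covered 68.4% of the gene body, against 27.6%, 32.2% and 28.2% in XY progenitors, XX progenitors and Sertoli cells. H3K27me3 covered 69.8%, 68.6% and 54.3% of the gene body in those 3 populations and 0.0% in pregranulosa cells. The number of H3K4me3 regions within 50 kb of the TSS was 2 in each of the other populations and 5 in pregranulosa cells, where 3 of them were 1001 bp wide, the width of a single minimal peak.

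**Figure D2:**
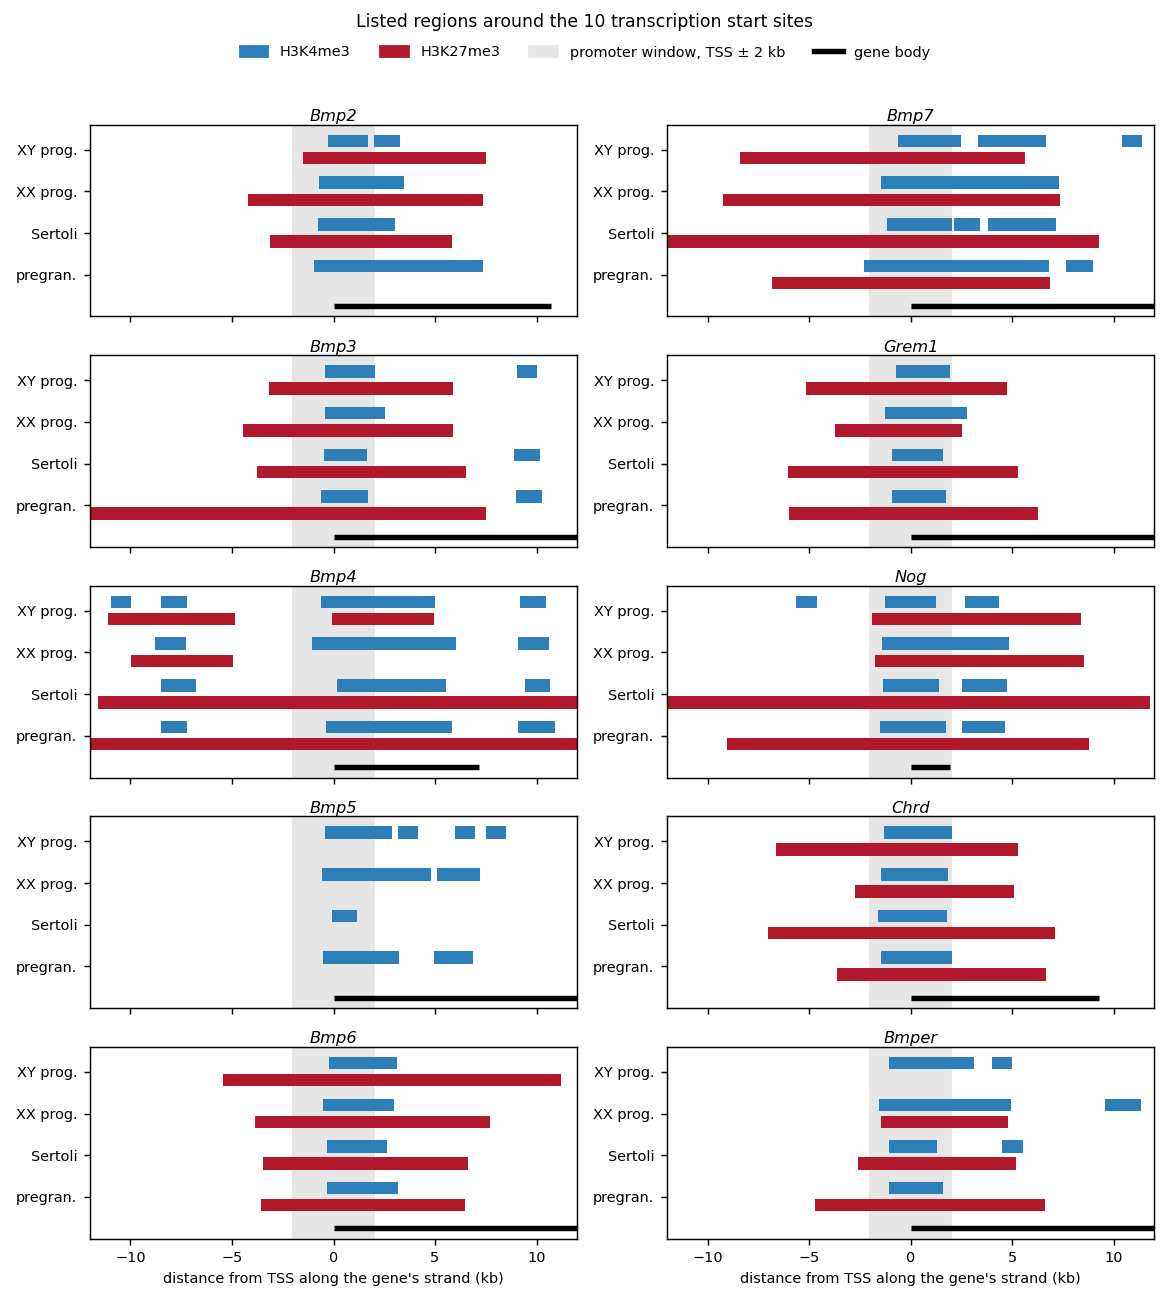
Listed regions within 12 kb of each TSS, drawn to scale along the strand of the gene, with H3K4me3 in blue above H3K27me3 in red for each population, the promoter window in gray and the gene body in black. *Bmp2* has red bars in 3 of 4 populations and its longest blue bar in the fourth (8318 bp), and *Bmp5* has no red bar.

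*Bmp4*, the closest relative of *Bmp2* among the ligands, showed another order. The gene lies at chr14:47003195-47010344 on the minus strand (7150 bp) and overlaps the predicted genes *Gm15217* and *Gm15222*. H3K27me3 covered 2051 bp of the promoter in XY progenitors, 0 bp in XX progenitors and 4001 bp in both E13.5 populations. In XY progenitors this was a single listed peak of 5001 bp that started 50 bp upstream of the TSS. In that list, with 6470151 tags, 0.0% of H3K27me3-marked promoters had a narrower region, so the call rests on 1 peak of the smallest width. In XX progenitors the nearest H3K27me3 region was 4959 bp away. At E13.5 the regions were 26431 bp wide in Sertoli cells, joined from 16 listed peaks, and 32873 bp wide in pregranulosa cells. They covered 100% of the gene body in both, compared with 69.2% in XY progenitors and 0.0% in XX progenitors. Each of these E13.5 regions also held the TSS of 1 other protein-coding gene, so its width cannot be assigned to *Bmp4* alone. H3K27me3 at *Bmp4* was broad in both E13.5 lists, a single peak in XY progenitors and missing in XX progenitors, where it was called with a window of TSS ± 5 kb. The classes of *Bmp4* were shared by 57 protein-coding genes (0.255%).

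H3K4me3 was among the widest of the protein-coding genes at *Bmp4*. Its region measured 5626 bp in XY progenitors, 7074 bp in XX progenitors, 5372 bp in Sertoli cells and 6231 bp in pregranulosa cells, wider than at 94.2% to 97.6% of marked promoters. In Sertoli cells the region began 151 bp downstream of the annotated TSS, so that the TSS base itself was outside it. It was the only such case among the 40 combinations of gene and population.

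Of the 6 ligands, *Bmp5* alone had no H3K27me3 at its promoter in any population. The gene, at chr9:75623171-75748117 on the plus strand (124947 bp), encodes a ligand of the subgroup of *Bmp6* and *Bmp7*. The nearest H3K27me3 region lay 538917 bp from its TSS in XY progenitors, 538970 bp in XX progenitors, 148004 bp in Sertoli cells and 146828 bp in pregranulosa cells. H3K4me3 without H3K27me3 in all 4 populations was found at 8216 protein-coding promoters, 36.7% of all. H3K4me3 at *Bmp5* covered 2429 bp of the promoter in XY progenitors, 2576 bp in XX progenitors, 1264 bp in Sertoli cells and 2533 bp in pregranulosa cells. The Sertoli region was also the narrowest, 1264 bp against 3310, 5359 and 3750 bp in XY progenitors, XX progenitors and pregranulosa cells. Only 7.2% of H3K4me3-marked promoters of the Sertoli list had a narrower region, and in the other lists the share was 82.5%, 91.9% and 72.2%. Regions further into the first 10 kb of the gene were listed in the other 3 populations and not in Sertoli cells, and the share of the gene body covered by H3K4me3 was 5.5%, 6.3%, 1.7% and 7.0% in XY progenitors, XX progenitors, Sertoli and pregranulosa cells. A separate narrow H3K4me3 region, 1001 to 1253 bp wide, lay about 40 kb upstream in all 4 lists, at -40247 to -39247 bp in Sertoli cells. Of the 4 lists, Sertoli cells had the fewest bases of H3K4me3 at the *Bmp5* promoter.

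The other 3 ligands were bivalent in all populations, with H3K27me3 over the whole 4001 bp promoter in each list. *Bmp3*, whose product antagonizes other BMPs although it is a family member, lies at chr5:99283458-99309979. Its H3K27me3 region was 9090 bp wide in XY progenitors, 10339 bp in XX progenitors, 10298 bp in Sertoli cells and 22977 bp in pregranulosa cells, where it reached -15464 bp. The H3K4me3 region at the *Bmp3* TSS was from 2113 bp wide in Sertoli cells to 2936 bp in XX progenitors, and it lay wholly within H3K27me3 in every population. *Bmp6* (chr13:38436995-38592183, whose gene body overlaps *Txndc5*) had H3K27me3 regions of 16637, 11562, 10078 and 10068 bp in XY progenitors, XX progenitors, Sertoli and pregranulosa cells. The widest region at *Bmp6* was in XY progenitors.

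*Bmp7*, a ligand with known roles in kidney and eye development, lies at chr2:172693513-172765822 on the minus strand (72310 bp). Its H3K27me3 region was 13992 bp wide in XY progenitors, 16572 bp in XX progenitors, 21370 bp in Sertoli cells and 13690 bp in pregranulosa cells. In Sertoli cells 4 H3K27me3 regions within 50 kb of the TSS covered 42066 bp, whereas the other populations had a single region each. H3K4me3 at *Bmp7* was broader in the XX than in the XY populations, at 8748 bp in XX progenitors and 9145 bp in pregranulosa cells against 3106 bp in XY progenitors and 3215 bp in Sertoli cells. The gap came from joining as well as from length, since XY progenitors and Sertoli cells had further H3K4me3 regions between 2153 and 7167 bp, a stretch that a single region spanned in XX progenitors. The pregranulosa region was wider than 99.1% of those at marked promoters and lay within H3K27me3 at both ends. The *Bmp7* promoter therefore combined the widest H3K4me3 region of the 10 genes with H3K27me3 in the same list, in contrast to *Bmp2*, which combined wide H3K4me3 with none.

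**Figure D3:**
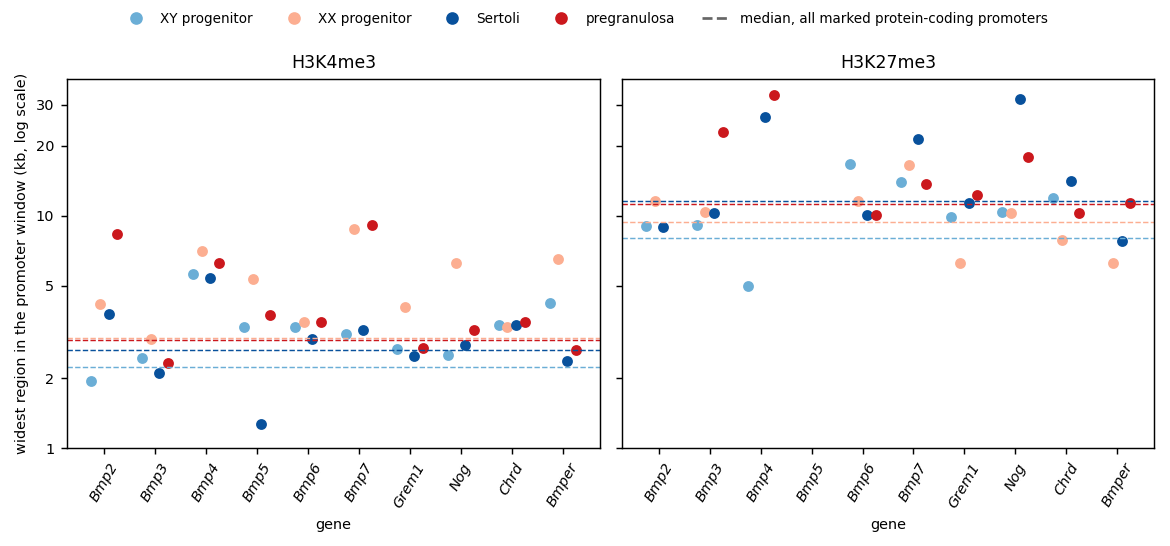
Width of the widest region in each promoter window in kb on a log scale, for H3K4me3 (left) and H3K27me3 (right), with a point for each gene and population and dashed lines at the median over all marked protein-coding promoters of the same list. For H3K4me3, *Bmp2* and *Bmp7* reach 8318 and 9145 bp in pregranulosa cells and *Bmp5* falls to 1264 bp in Sertoli cells, and no point is drawn where no region is listed.

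Of the antagonists, 3 were bivalent in all populations. *Nog* encodes noggin, which binds BMP2, BMP4 and BMP7 and blocks their contact with receptors, and is a gene of 1 exon (chr11:89161952-89163873, minus strand, 1922 bp). H3K27me3 covered 3903 bp of its promoter in XY progenitors, 3751 bp in XX progenitors and 4001 bp in Sertoli and pregranulosa cells. The region measured 10311 bp in XY progenitors, 10293 bp in XX progenitors, 31783 bp in Sertoli cells, where it was joined from 19 listed peaks, and 17857 bp in pregranulosa cells. It was wider in both E13.5 lists than in both E10.5 lists. Within each list it was wider than at 65.1%, 54.9%, 88.1% and 73.6% of H3K27me3-marked promoters, in the same order. All of the *Nog* gene body was inside H3K27me3 in all 4 populations, and H3K4me3 covered 65.5%, 100%, 73.3% and 90.6% of it in XY progenitors, XX progenitors, Sertoli and pregranulosa cells. The window also holds the start of the noncoding gene *Gm2018*, and the marks of the pair cannot be separated in these lists.

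*Chrd* encodes chordin, a cysteine-rich antagonist that is released from ligands by cleavage, and lies at chr16:20733200-20742457. Its H3K4me3 was the most even of the 10, covering 3335, 3304, 3374 and 3461 bp of the promoter in XY progenitors, XX progenitors, Sertoli and pregranulosa cells. H3K27me3 covered the whole window in each, in regions of 11947, 7833, 14133 and 10306 bp. The start of *Thpo*, a protein-coding neighbor, is in the same window, so the marks cannot be assigned to *Chrd* alone. *Grem1* encodes gremlin 1, an antagonist of the DAN family that binds BMP2, BMP4 and BMP7 (chr2:113586321-113598803, minus strand). Its H3K27me3 region was 9898 bp in XY progenitors, 6255 bp in XX progenitors, 11365 bp in Sertoli cells and 12235 bp in pregranulosa cells. H3K4me3 at *Grem1* went the other way and was widest, at 4034 bp, in XX progenitors, against 2663, 2492 and 2684 bp in the others. In XX progenitors H3K4me3 thus reached 2774 bp into the gene and H3K27me3 ended at 2506 bp.

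*Bmper* encodes a secreted, chordin-related protein that binds BMPs and can restrain or enhance their action (chr9:23027520-23289646, plus strand, 262127 bp). H3K27me3 covered 0 bp of its promoter in XY progenitors, 3468 bp in XX progenitors and 4001 bp in Sertoli and pregranulosa cells. With only the widest 75% of regions in each list, the mark in XX progenitors was lost. The nearest H3K27me3 region in XY progenitors, the list with 6470151 tags, was 15376 bp from the TSS. The regions were 6255 bp wide in XX progenitors, 7782 bp in Sertoli cells and 11331 bp in pregranulosa cells, and the first was narrow for its list, with 17.8% of H3K27me3-marked promoters narrower. H3K4me3 was wider at E10.5 than at E13.5, measuring 4200 bp in XY progenitors and 6478 bp in XX progenitors against 2378 bp in Sertoli cells and 2651 bp in pregranulosa cells. The 4 classes of *Bmper* were shared by 94 protein-coding genes (0.42%). As the only antagonist whose class changed, *Bmper* was also the only gene of the 10 without H3K27me3 in XY progenitors apart from *Bmp5*.

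Between E10.5 and E13.5, few of the 10 promoters gained or lost H3K27me3. From XX progenitors to pregranulosa cells it was lost at *Bmp2* alone, 1 of 10, while 4.44% of all protein-coding promoters lost it, and gained at *Bmp4* alone, against 3.29% of all. From XY progenitors to Sertoli cells it was lost at 0 of 10, against 5.21% of all, and gained at *Bmper* alone, against 5.71% of all. With 10 genes, 1 gain or loss is close to these background shares. Within the promoter window, H3K4me3 at *Bmp4* and *Bmper* covered fewer bases at E13.5 than at E10.5 in both sexes, by -777 and -682 bp in XY and -661 and -899 bp in XX cells, and at both genes H3K27me3 covered more bases at E13.5 in both sexes. H3K4me3 also covered fewer bases at E13.5 in both sexes at *Bmp3* (-305 bp in XY, -85 bp in XX), *Bmp5* (-1165 and -43 bp) and *Grem1* (-171 and -576 bp). The median H3K4me3 cover over all marked protein-coding promoters went from 2195 to 2531 bp in XY and from 2803 to 2721 bp in XX cells. Of the H3K4me3 changes at the 10 genes, only that at *Bmp5* in XY cells exceeded the 1000 bp peak size. H3K27me3 covered the full 4001 bp in every list at *Bmp3* and *Grem1*, so the window could show no rise. At *Bmp5* it covered 0 bp in every list. The H3K27me3 regions at *Bmp3* widened from 9090 to 10298 bp in XY and from 10339 to 22977 bp in XX cells. At *Grem1* they went from 9898 to 11365 bp and from 6255 to 12235 bp. The median over all marked promoters also rose, from 8011 to 11566 bp and from 9352 to 11167 bp. *Bmp2*, *Bmp7* and *Chrd* had more H3K4me3 bases at E13.5 in both sexes, *Bmp2* by 803 bp in XY and 269 bp in XX cells and *Bmp7* by 522 bp and 534 bp.

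**Figure D4:**
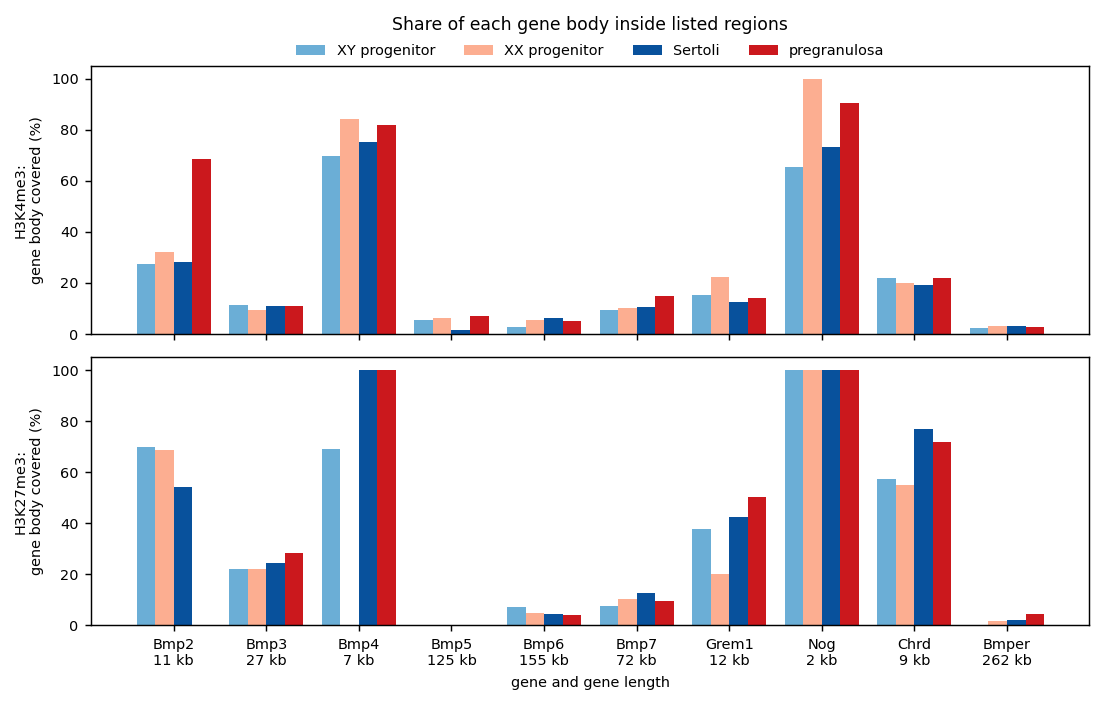
Percent of each gene body inside H3K4me3 (top) and H3K27me3 (bottom) regions, with bars from 0 for the 4 populations and gene lengths under the names. *Nog* and *Bmp4*, the shortest genes, reach 100% for H3K27me3, *Bmp2* falls to 0.0% in pregranulosa cells, and no H3K27me3 lies in *Bmp5*.

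The share of a gene body inside each mark varied among the 10 genes. The 4 genes over 70 kb (*Bmp5*, *Bmp6*, *Bmp7* and *Bmper*) had at most 14.8% of their bodies inside H3K4me3 and at most 12.8% inside H3K27me3 in any population. The median over the 10 genes was 13.4%, 15.1%, 11.8% and 14.4% for H3K4me3 in XY progenitors, XX progenitors, Sertoli and pregranulosa cells, and 30.0%, 15.2%, 33.5% and 18.9% for H3K27me3. Over all protein-coding genes the medians were 3.6%, 5.2%, 4.6% and 5.7% for H3K4me3 and 0.0% in each population for H3K27me3. *Grem1* had 37.9%, 20.1%, 42.5% and 50.2% of its body inside H3K27me3 in XY progenitors, XX progenitors, Sertoli and pregranulosa cells, and *Chrd* had 57.2%, 55.1%, 76.8% and 72.0%. Both antagonists had larger shares at E13.5 than at E10.5. Regions at all H3K27me3-marked promoters were also wider at E13.5, with medians of 11566 bp (Sertoli) and 11167 bp (pregranulosa) against 8011 bp (XY) and 9352 bp (XX). The share of marked promoters with a narrower region fell at both genes in the XY lists (*Chrd* 72.5% to 62.3%, *Grem1* 62.5% to 47.6%). It rose at both in the XX lists (37.9% to 45.5% and 17.8% to 56.7%).

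The promoters differed in CpG content. Over the 4001 bp window, the CpG observed to expected ratio (the count of CpG against that expected from the C and G content) ranged from 0.29 at *Bmp5* to 0.73 at *Bmp2*, with a median of 0.55 over the 10 genes and 0.37 over 22362 protein-coding promoters with sequence. *Bmp2* had a higher ratio than 96.8% of these promoters, *Nog* than 94.0%, *Bmp6* than 92.5% and *Bmper* than 92.0%. *Bmp3* and *Bmp4*, at 0.46 each, were higher than 65.7% and 66.4% of promoters and below the median of the 10 genes. *Bmp5* had 37 CpGs in the window and a G+C content of 36%, against 207 CpGs and 53.4% at *Bmp2*. In the 250 bases upstream of the TSS, *Bmp5* and *Bmp3* had 4 CpGs each, with ratios of 0.34 and 0.36, and *Bmp4* had 11 and a ratio of 0.45, below the median of 0.50 over all promoters. Among 1885 protein-coding promoters with at least 50% G+C and a ratio of at least 0.6, a set chosen after these values were seen and holding *Bmp2*, *Bmp6*, *Nog* and *Bmper*, the bivalent share was 36.8%, 38.2%, 31.2% and 35.5% in XY progenitors, XX progenitors, Sertoli and pregranulosa cells. In the same order, H3K4me3 was at 99.2%, 99.9%, 99.6% and 99.8% of this set and H3K27me3 at 37.5%, 38.4%, 31.6% and 35.8%.

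**Figure D5:**
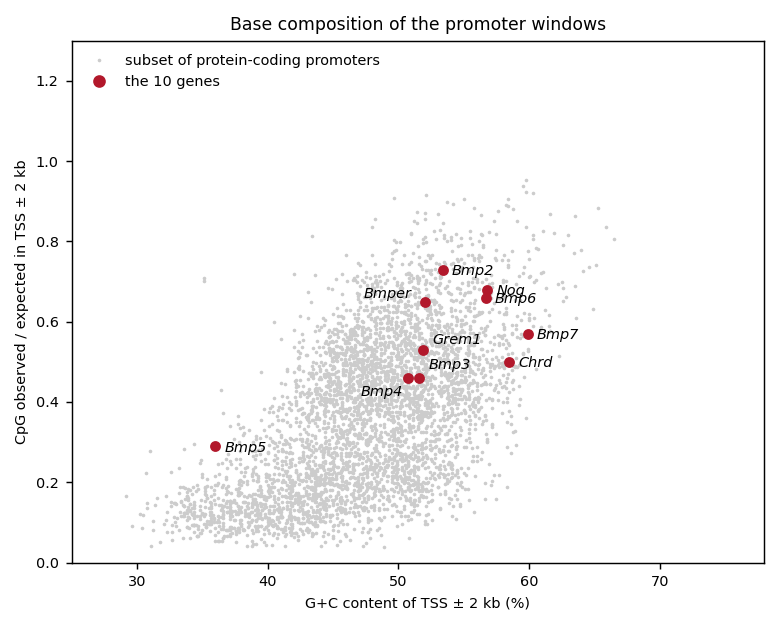
G+C content in percent (x axis) against the CpG observed to expected ratio (y axis) of the promoter windows, with the 10 genes in red and a regular subset of protein-coding promoters in gray. *Bmp5* lies at 36% and 0.29, apart from the other 9 genes, which lie between 50.7% and 59.9% G+C and between 0.46 and 0.73.

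Matches to 5 short motifs were looked for on both strands of the 250 bases upstream of each TSS, and no motif contains another. GGCGCC, a BMP-responsive Smad element, was found at *Grem1* and *Chrd*, 2 of 10 genes, and at 11.1% of protein-coding promoters. AGGTCA, the site bound by monomeric nuclear receptors such as NR5A1, was found at *Bmp6* and *Grem1* and at 12.5% of promoters. ACAAAG, the core of SOX and TCF sites, was found at *Bmp3* and *Grem1* and at 15.4% of promoters. AGATAA, a motif of the family of *Gata4*, was found at none of the 10 genes and at 9.33% of promoters. A core promoter box, TATAAA, was also found at none of the 10 genes, and at 12.3% of promoters. A match of 6 letters is a description of these windows only.

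The marks at the rest of the pathway are given for comparison. Of 41 further genes of the pathway, 17 were bivalent in XY progenitors, 19 in XX progenitors, 19 in Sertoli cells and 20 in pregranulosa cells, and H3K4me3 was present alone at 20, 18, 17 and 17. In all 4 populations 13 of the 41 were bivalent and another 13 carried H3K4me3 alone, against 13.6% and 36.7% of all protein-coding promoters. Of 7 receptors, *Bmpr1a*, *Bmpr2*, *Acvr1*, *Acvr2a* and *Acvr2b* had H3K4me3 alone in every population, and *Bmpr1b* was bivalent in every population. Of 6 Smads, 5 had H3K4me3 alone throughout, and *Smad9* was bivalent in both E13.5 populations with H3K27me3 over 4001 bp. Of the targets, *Id1* and *Id2* had H3K4me3 alone, and *Id4*, *Msx1* and *Msx2* were bivalent, in every population. Of the other ligands, *Bmp8a*, *Bmp8b*, *Gdf6* and *Gdf7* were bivalent in all 4, and *Gdf5* was bivalent at E13.5 only. In the order XY progenitors, XX progenitors, Sertoli and pregranulosa cells, the bivalent count was 4, 4, 5 and 5 of 8 other ligands, 2, 2, 1 and 2 of 7 receptors, 0, 0, 1 and 1 of 6 Smads, 3, 4, 4 and 3 of 6 targets and 8, 9, 8 and 9 of 14 other antagonists and modulators.

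Besides *Bmp2*, 8 of the 41 pathway genes differed in class between Sertoli and pregranulosa cells, against 13.0% of all protein-coding promoters. H3K27me3 was present in Sertoli and absent in pregranulosa cells at the ligand *Gdf2* (4001 bp against 0 bp), the target *Id3* (3060 bp against 0 bp) and the follistatin-like gene *Fstl1* (3559 bp against 0 bp), the direction seen at *Bmp2*. The opposite held at the type I receptor *Acvrl1* (0 bp against 4001 bp), the cysteine-rich modulator *Crim1* (0 bp against 4001 bp) and the pseudoreceptor *Bambi* (0 bp against 2464 bp). *Sost* and *Sostdc1*, secreted antagonists, carried H3K27me3 in both and differed by H3K4me3, which at *Sost* was 0 bp in Sertoli and 1169 bp in pregranulosa cells and at *Sostdc1* 1001 bp and 0 bp. In pregranulosa cells H3K4me3 covered 872 bp of the *Gdf2* promoter, 3133 bp at *Id3* and 2566 bp at *Fstl1*, against 2977 bp at *Bmp2*.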

How the data were processed

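Supporting cells were FACS-sorted by reporter fluorescence and profiled by native, MNase-based ChIP-seq on pooled gonads, with *Drosophila* S2 cells added as carrier. After trimming with Trim Galore, the authors mapped the reads with Bowtie to mm9, handled the alignments with SAMtools and called peaks with HOMER against H3 (tools and build from the submitters' processing notes and the study's methods; versions are not given in the sources used here). The deposited files are 8 peak lists, each made from both replicates per the series description. The headers of 4 progenitor lists name joined tag directories, those of the 2 Sertoli lists do not, and the 2 pregranulosa lists have no header. Per the file headers, peaks had at least 4.00 times the control tags, with a peak size of 1000 bp for H3K4me3 and 5000 bp for H3K27me3. The deposited score column holds the value 1 for every peak or is absent, so only positions carry information. No signal, count or replicate-level file was used here, and the H3 samples have no list of their own.

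Overlapping peaks of a list were joined into regions, and positions were converted from 0-based starts to positions counted from 1. Lists were compared with GENCODE M1 genes on NCBIM37, the build named mm9, and 0 listed peaks ended past a chromosome. A promoter was called marked when a region overlapped the TSS ± 2 kb by at least 1 bp. The TSS was the 5' end of the annotated gene. All 10 genes and all 41 pathway genes were found in the annotation. Bivalent shares over all protein-coding promoters are given with 95% intervals (exact binomial, Clopper-Pearson) that hold counting error and no other error. Calculations used Python 3.11.15, NumPy 2.4.6 and SciPy 1.17.1, and figures Matplotlib 3.10.9. The interval code was tested on simulated data. Sequences were read from NCBIM37, and the primers from the study's supplementary material.

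The genes, the pathway and marker lists and the motifs were chosen with earlier results of these data known. The text names all 10 genes, the pathway genes whose class differs between Sertoli and pregranulosa cells, other pathway genes by class, and the marker genes. Pathway genes named with an unchanged class are examples chosen after their values were seen. Other overlaps, windows, region sets and start sites were tried, and their effect is given at the end.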

Additional observations from a re-analysis of the deposited data

Results flagged for a closer look

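Between E10.5 and E13.5 the change in covered promoter bases took opposite signs in the XX and XY lists at 3 of the 20 combinations of gene and mark, and with 1 pooled list per group these differences were not tested. No share over all protein-coding promoters is given beside this count, so it cannot be called high or low. At *Bmp2*, H3K27me3 covered 4001 bp fewer in pregranulosa cells than in XX progenitors (0 against 4001 bp) and 505 bp more in Sertoli cells than in XY progenitors (4001 against 3496 bp), a difference of -4506 bp between the XX and XY changes. At *Nog*, H3K4me3 covered 3231 bp in pregranulosa cells and 3415 bp in XX progenitors, against 2790 bp in Sertoli cells and 2505 bp in XY progenitors, a difference of -469 bp. At *Bmp6*, H3K4me3 covered 2304 bp and 2526 bp in the XX lists and 2336 bp and 2210 bp in the XY lists, a difference of -348 bp. The values at *Nog* and *Bmp6* are smaller than the 1000 bp peak size used for H3K4me3, and their promoter class was the same in all 4 populations.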

How the results depend on the processing

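Of 80 calls (10 genes, 2 marks, 4 populations), none changed with at least 500 bp of overlap, TSS ± 1 kb, equal numbers of the widest regions per mark, gaps of up to 5 kb joined, or any annotated transcript start. H3K27me3 at *Bmp4* in XX progenitors was gained with TSS ± 5 kb, H3K27me3 at *Bmper* in XX progenitors was lost with the widest 75% of regions, and H3K4me3 at *Bmp4* in Sertoli cells was lost when the TSS base had to be inside a region. Bivalent genes therefore numbered 8 under every alternative in XY progenitors and in pregranulosa cells, 7 to 9 in XX progenitors and 8 to 9 in Sertoli cells. In XY progenitors this count includes *Bmp4*, whose H3K27me3 region was a single peak of 5001 bp, with 0.0% of marked promoters narrower. Regions of equal width were kept in order of chromosome and position. The cuts by width therefore cannot show whether that call is stable. Bivalent pathway genes ranged from 15 to 20, 17 to 20, 15 to 22 and 18 to 22 in XY progenitors, XX progenitors, Sertoli and pregranulosa cells, under the same 8 alternatives, added for this list after the data were seen.

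The bivalent share of all promoters moved past its interval in most alternatives. In that order of populations it was 19.0%, 21.4%, 17.2% and 19.2% with TSS ± 1 kb, 14.8%, 16.5%, 13.8% and 15.2% over all annotated genes, and 16.3%, 17.9%, 15.4% and 17.1% with the widest 75% of regions. With 500 bp of overlap it was 19.7% in XY progenitors, 18.0% in Sertoli and 19.8% in pregranulosa cells, with equal numbers of regions 19.8%, 15.6% and 17.1%, and over autosomal genes 21.4% in XX progenitors and 19.6% in pregranulosa cells. Over promoters rich in G+C and CpG, added after the data were seen, it was 36.8%, 38.2%, 31.2% and 35.5%.

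No paired analysis was possible because each group has 1 list made from both replicates, which also leaves no replicate to leave out. Depth was lowest in XY progenitors among the 3 populations with a header and is not given for pregranulosa cells, the lists carry no enrichment level, and H3K27me3 peaks of about 5 kb are wider than the promoter window.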
